A study of Mus musculus with 12 samples.

Results

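The genes described here are 38 markers of white blood cells, read by name from a count table of 46882 genes measured by RNA sequencing in whole mouse kidney. They comprise 20 myeloid genes of macrophages and related cells, 6 genes shared by leukocytes in general, and 12 lymphoid genes of T, NK and B cells. All 38 names were found in the table. Kidneys came from C57BL/6 mice aged 6 to 8 weeks that were either wild type (WT, n = 6) or homozygous for loss of A1cf (A1cf -/-, called A1cf KO here, n = 6). A1cf encodes an RNA-binding protein that assists APOBEC1 in editing apolipoprotein B mRNA, and the loss is present in every cell type of the animal, leukocytes included, as far as the labels describe it. The labels name no treatment, and the series text calls the libraries of each genotype biological replicates. WT animals carried the numbers 573, 590, 601, 776, 777 and 778, and A1cf KO animals the numbers 574, 584, 588, 591, 602 and 780.

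Macrophages are the most numerous leukocytes of the healthy kidney, where they lie between the tubules, depend on signals through the receptor encoded by Csf1r, and clear debris and immune complexes. T cells recognise antigen through a receptor whose signal is carried by the CD3 chains. B cells do so through surface immunoglobulin and the CD79 pair, and plasma cells, their descendants, secrete antibody in large amounts from very abundant immunoglobulin transcripts. In whole tissue, fewer cells of a type and less RNA per cell cannot be told apart.

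Total counts per library ran from 26671705 to 52899139, and 16910 genes passed the low-count filter. Levels are given as CPM, counts scaled to a common library total with TMM factors, as mean ± SD with n = 6 per genotype. The deleted gene A1cf, as a check of the labels, averaged 54.5 ± 7.39 CPM across the WT kidneys against 4.11 ± 1.07 CPM across the A1cf KO kidneys, and its groups did not overlap. The animal numbers in the titles form 2 ranges, which are called number series here. Animals 573 to 602 comprise 3 WT and 5 A1cf KO, and animals 776 to 780 comprise 3 WT and 1 A1cf KO. What the numbers stand for is not given in the sources used here. As the ranges are uneven between genotypes, genotype differences are also given with a term for them, or within them, for the class medians and for members whose value moves clearly.

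Summed CPM of the members was 241 to 361 per library. Mean abundance over the 12 libraries, in CPM per kilobase of exon, was highest for Igkc, the constant region of the kappa light chain, at 67.3. Next came Lyz2, a lysozyme of macrophages and granulocytes, at 26.3, then C1qb at 16.4, C1qa at 14.04 and Csf1r at 11.9. Tyrobp, a signalling adaptor of myeloid and NK cells, stood at 10.1. The T cell coreceptor gene Cd4 was at 0.22 and the B cell surface gene Ms4a1 at 0.028, the lowest of the 38. All 20 myeloid genes and all 6 shared genes passed the low-count filter, and of the lymphoid genes 11 of 12 did. Ms4a1 was removed by that filter, with 0 to 20 counts per library. In A1cf KO 780 it had 0 counts, which allows a level of up to 0.102 CPM if each count is a separate fragment (3 counts, counting error only). As most fragments appear to be counted by both reads, the true limit is higher than that. The markers of each cell class were thus detected, with Ms4a1 at the edge of detection.

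Spread between animals set the limits of every comparison. The coefficient of variation over the 12 libraries, without regard to group, was 9.32% for Csf1r, 10.6% for Lcp1 and 13.2% for Laptm5, against a median of 14.6% over all genes tested. It was 64.9% for Cd163, 57.4% for Itgam, 56.4% for Cd79a and 55.6% for Igkc. The median over the lymphoid genes was 44.1%, over the myeloid genes 22.6% and over the shared genes 18.4%. Low counts enter the lymphoid spread, since all lymphoid genes except Igkc and Ighm lay at or below 2.11 CPM in every library.

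Between genotypes, no member passed the threshold of an adjusted p of 0.05 by edgeR's quasi-likelihood test, where 8 of all 16910 genes tested did (0.0473%). At an unadjusted p under 0.05, 6 of 37 tested members were higher in A1cf KO and 0 were lower, beside 5.07% of all genes higher and 5.28% lower. These 6 were Itgax, Adgre1 and C1qc of the myeloid genes, Ptprc and Laptm5 of the shared genes, and Ighm of the lymphoid genes. By DESeq2, 1 member, Itgax, was called, where 90 genes were called higher (0.603%). Log2 fold changes, A1cf KO relative to WT, were positive for 19 of 20 myeloid genes, 5 of 6 shared genes and 7 of 11 lymphoid genes, beside 49.2% of all genes tested. Their medians were 0.26, 0.22 and 0.09, where the median over all genes tested was -0.00302. With a term for number series the medians were 0.26, 0.19 and 0.28, and within animals 573 to 602 they were 0.29, 0.25 and 0.31, so that the lower lymphoid value was not seen there. The members are coordinated markers of the same cells and are not independent of each other.

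**Figure D1:**
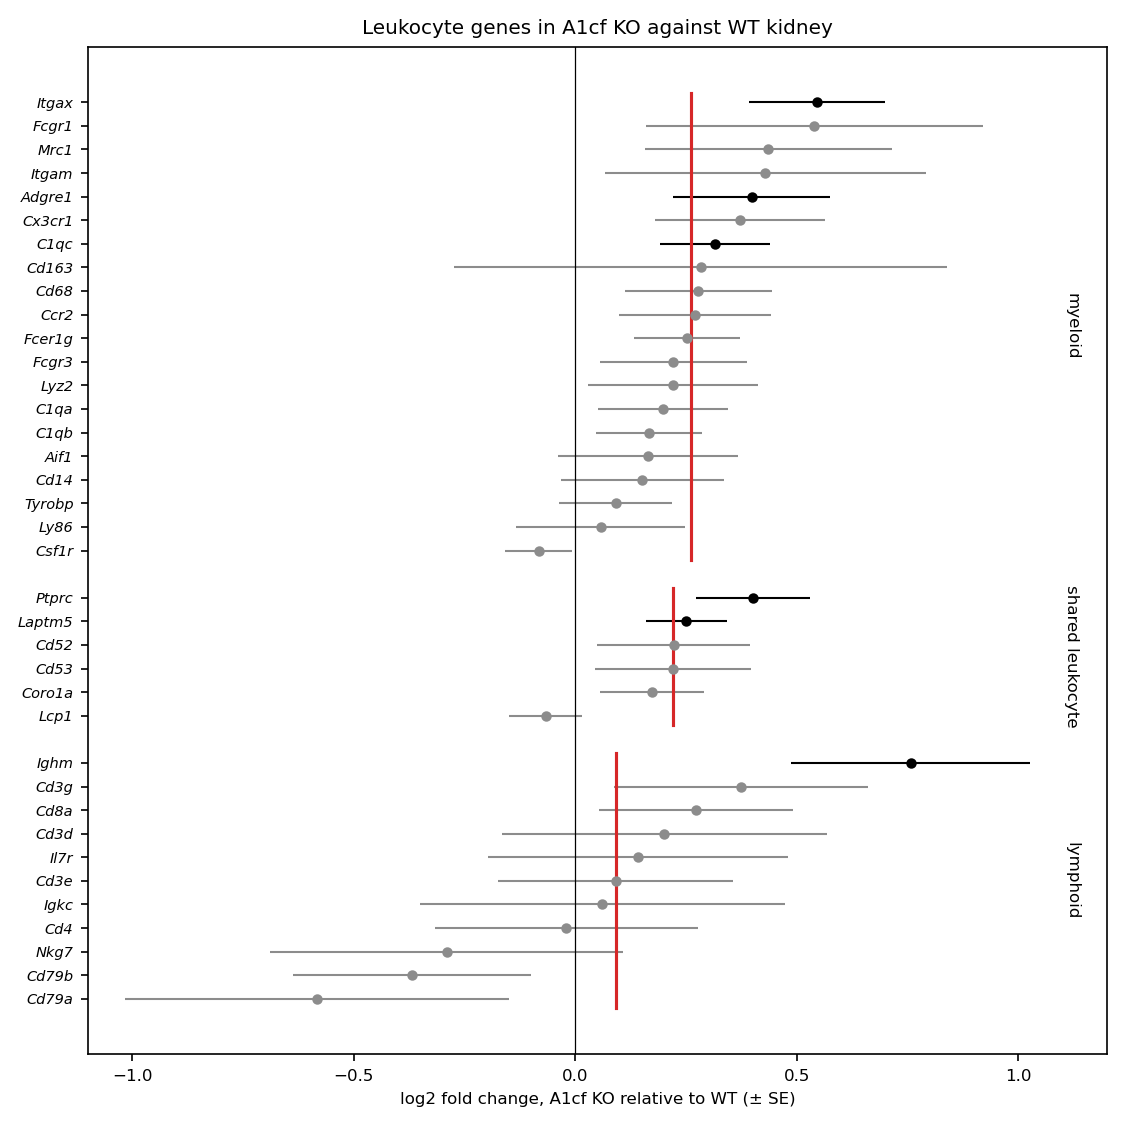
Log2 fold change of each tested member (x axis, A1cf KO relative to WT, edgeR) with its standard error as a bar, in 3 blocks for myeloid, shared leukocyte and lymphoid genes. Black points have an unadjusted p under 0.05, and red lines mark the block medians of 0.26, 0.22 and 0.09. Of the myeloid genes, Csf1r alone lies below 0, while 4 of the 11 lymphoid genes do.

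For single members the term for number series moved values both ways. Log2 fold changes became smaller for Itgam (from 0.43 to 0.17), Fcgr1 (0.54 to 0.19), Cd68 (0.28 to 0.17), Lyz2 (0.22 to 0.13), Aif1 (0.16 to 0.0080), Cd52 (0.22 to 0.14), Coro1a (0.17 to 0.11) and Cd8a (0.27 to 0.10), and turned from 0.09 to -0.03 for Tyrobp. That of Cx3cr1 went from 0.37 to 0.31. Values became larger for Cd14 (0.15 to 0.34), Cd163 (0.28 to 0.47), Cd3e (0.09 to 0.17), Il7r (0.14 to 0.45) and Igkc (0.06 to 0.77), and turned from -0.02 to 0.37 for Cd4. They also rose for Fcgr3 (0.22 to 0.32), Cd3d (0.20 to 0.28), Cd3g (0.37 to 0.52), Mrc1 (0.44 to 0.50) and Ptprc (0.40 to 0.46). The negative values of Nkg7 (-0.29 to -0.19) and Cd79a (-0.58 to -0.11) came closer to 0. Those of Lcp1 (-0.07 to -0.12) and Cd79b (-0.37 to -0.44) moved away from it. None of the 37 members passed the edgeR threshold in that fit.

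Of the growth factor and chemokine receptors, Csf1r, the receptor for CSF1 and IL-34 on which macrophages depend, was the most abundant and the steadiest. It ran from 54.2 to 62.8 CPM with a median of 62.0 in WT, and from 46.2 to 64.5 CPM with a median of 57.9 in A1cf KO. A1cf KO 584 and 574 lay below and A1cf KO 591 above every WT library, and the other 3 lay within the WT range. The log2 fold change was -0.08 (SE 0.076, edgeR adjusted p = 0.744). Exons of Csf1r share 871 bases with Hmgxb3 on the other strand and counting used no strand, so its level is uncertain. Cx3cr1, the receptor for the adhesive chemokine fractalkine on resident macrophages and dendritic cells, had the highest fold change of the 3. WT values lay between 1.95 and 2.36 CPM (median 2.25), and A1cf KO values between 2.05 and 4.39 CPM (median 2.34). Only A1cf KO 574 (3.81 CPM) and A1cf KO 584 (4.39 CPM) stood above the WT range, and the log2 fold change of 0.37 had an edgeR adjusted p of 0.519. Ccr2, the receptor that draws monocytes from blood, had a log2 fold change of 0.27. Its A1cf KO values were highest in the same animals, 574 (4.63 CPM) and 584 (4.25 CPM).

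Itgax was the member whose genotypes separated. It encodes the integrin CD11c, typical of dendritic cells and part of kidney macrophages, and spans chromosome 7, 128129547 to 128150657, plus strand (mm10). In WT it was 2.66, 1.94, 2.32, 2.47, 2.19 and 2.45 CPM in animals 573, 590, 601, 776, 777 and 778. In A1cf KO it was 4.17, 4.25, 3.77, 2.68, 2.76 and 2.81 CPM in animals 574, 584, 588, 591, 602 and 780. The lowest A1cf KO library thus lay just above the highest WT library, and 3 of the 6 A1cf KO libraries stood well above the rest. Groups did not overlap for 54 genes higher in A1cf KO (0.319%), among the members for Itgax alone. The means were 2.34 ± 0.25 and 3.41 ± 0.74 CPM, and the log2 fold change was 0.55 (SE 0.15). The unadjusted p was 0.0030 and the adjusted p 0.268 by edgeR, and the adjusted p was 0.0485 by DESeq2. The exact two-sided permutation p of 0.0022, the smallest that 6 against 6 libraries can give, became 0.258 after adjustment over all genes tested. With a term for number series the log2 fold change was 0.51 (edgeR adjusted p = 0.239). Itgam, the neighbouring gene for the integrin CD11b of monocytes and granulocytes, had wide ranges of 0.989 to 3.37 CPM in WT (median 1.59) and 1.18 to 5.17 CPM in A1cf KO (median 1.91). A single library, A1cf KO 602, carried its log2 fold change of 0.43, which was 0.04 without that library. Exons of Itgam share 347 bases with RP23-144N15.3 on the same strand, so its level is uncertain.

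**Figure D2:**
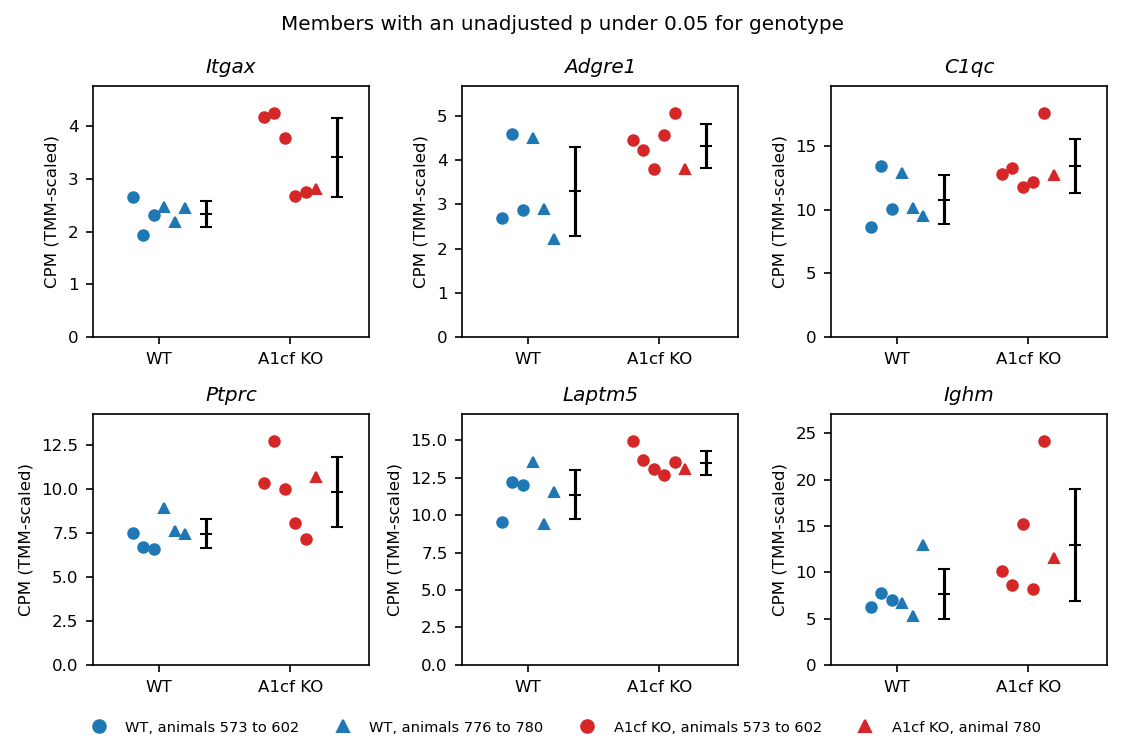
CPM (y axis, starting at 0) per library for the 6 members with an unadjusted p under 0.05 for genotype, with WT in blue and A1cf KO in red, circles for animals 573 to 602 and triangles for 776 to 780. Black bars show mean and SD (n = 6 each). The groups touch but do not overlap for Itgax and overlap for the other 5 genes.

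All 7 scavenger, pattern and Fc receptors had positive log2 fold changes, none of which passed the threshold. Adgre1, which encodes the macrophage surface protein F4/80, ran from 2.21 to 4.58 CPM in WT (median 2.88) and from 3.79 to 5.06 CPM in A1cf KO (median 4.34). Of the WT libraries, 590 and 776 lay within the A1cf KO range and the other 4 below it. The log2 fold change was 0.40 (SE 0.18, unadjusted p = 0.041, adjusted p = 0.457 by edgeR). Fcgr1, the high-affinity receptor for IgG, had the highest fold change of the group, 0.54, and Ly86, a secreted partner of a toll-like receptor homologue, the lowest, 0.06, with 1.30 to 2.51 CPM in WT (median 2.16) and 1.59 to 2.80 CPM in A1cf KO (median 2.17). Fcgr1 ranged from 0.353 to 0.958 CPM in WT (median 0.863) and from 0.339 to 2.14 CPM in A1cf KO (median 0.984). Both groups shared the same low end, and without A1cf KO 584, the highest library, the log2 fold change was 0.21. Cd14, the coreceptor for bacterial lipopolysaccharide and the most abundant of the group per kilobase, ran from 3.06 to 6.998 CPM in WT (median 4.90) and from 4.296 to 6.47 CPM in A1cf KO (median 5.44). The A1cf KO range lay inside the WT range. Fcgr3, a low-affinity IgG receptor, had a log2 fold change of 0.22.

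Cd163 and Mrc1 differed widely between animals of the same genotype, and varied together. Cd163 encodes the scavenger receptor for haemoglobin bound to haptoglobin, and Mrc1 the mannose receptor CD206, both typical of tissue-resident macrophages. Cd163 was 0.951, 4.56, 3.08, 6.04, 2.98 and 2.54 CPM in WT 573, 590, 601, 776, 777 and 778. It was 2.71, 4.50, 0.292, 1.82, 7.09 and 8.19 CPM in A1cf KO 574, 584, 588, 591, 602 and 780. The highest library, A1cf KO 780, thus stood 28.1-fold above the lowest, A1cf KO 588, and both belong to the same genotype. The genotype log2 fold change of 0.28 (SE 0.56, edgeR adjusted p = 0.893) turned to -0.036 without A1cf KO 780. Mrc1 was lowest in WT 573 (2.97 CPM) and A1cf KO 588 (3.65 CPM), the libraries in which Cd163 was lowest, and highest in A1cf KO 602 (11.98 CPM) and A1cf KO 780 (9.61 CPM). Its log2 fold change was 0.44 (SE 0.28, edgeR adjusted p = 0.620).

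Over the 12 libraries, on the log2 CPM scale used for all correlations here, Cd163 and Mrc1 had a Pearson r of 0.85 (permutation p = 7.0e-05) and a Spearman rho of 0.90 (permutation p = 1.7e-04), and the adjusted values over 10 gene pairs were 6.0e-04 and 9.0e-04. Without the 2 libraries farthest from the median of Cd163 on that scale, WT 573 and A1cf KO 588, r was 0.86, and within animals 573 to 602 it was 0.88 (n = 8). The 10 pairs were chosen from many possible ones, and the adjustment covers only these 10. How many other pairs of genes reach such an r was not counted. Summed CPM of fat cell genes (7 of 8 tested, 6 of them with positive genotype values) ran from 61.9 to 531 in the WT libraries, against 43.8 to 719 in those of A1cf KO. It was lowest in A1cf KO 588 and WT 573, which were also lowest for Cd163, and highest in A1cf KO 602, WT 777 and A1cf KO 780, with WT 777 midway in the order of Cd163. The part of these genes in the Cd163 and Mrc1 values was not tested.

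The 250 bases before RefSeq's start of both genes are shown because the genes varied together while only one of the stretches held the letters searched for. Sequences are RefSeq's, on GRCm38.p6 (the assembly called mm10), 5′ to 3′ on the strand of the gene. RefSeq's starts can differ from those of the annotation used for counting, and the ends of the Mrc1 and Itgax stretches lie inside the counted genes. Capitals mark GAGGAA or, on the other strand, TTCCTC, the core letters that the myeloid factor PU.1 recognises. The stretch of Mrc1 (chr2:14229164-14229413, plus strand) held 3 matches and that of Cd163 (chr6:124304401-124304650, plus strand) 0.
Mrc1: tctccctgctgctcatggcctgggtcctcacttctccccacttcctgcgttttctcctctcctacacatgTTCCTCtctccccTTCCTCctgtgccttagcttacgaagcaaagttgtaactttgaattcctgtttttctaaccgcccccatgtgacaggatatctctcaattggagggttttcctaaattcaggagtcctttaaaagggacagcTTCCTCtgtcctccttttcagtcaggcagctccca
Cd163: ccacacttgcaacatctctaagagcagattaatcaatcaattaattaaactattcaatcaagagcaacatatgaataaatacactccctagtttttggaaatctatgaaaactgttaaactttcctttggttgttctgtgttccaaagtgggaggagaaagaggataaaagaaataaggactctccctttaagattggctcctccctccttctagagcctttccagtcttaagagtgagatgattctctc
Of the 38 members, 27 had an entry in the RefSeq table, and 15 of these (55.6%) held a match on either strand. By class these were 8 of 15 myeloid, 3 of 5 shared and 4 of 7 lymphoid genes, beside 6986 of all 27025 genes in the table (25.9%), read over the same length. A gene was counted if any of its stretches held a match. A match is a run of letters and not a measured binding site, and no factor binding was measured here.

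**Figure D3:**
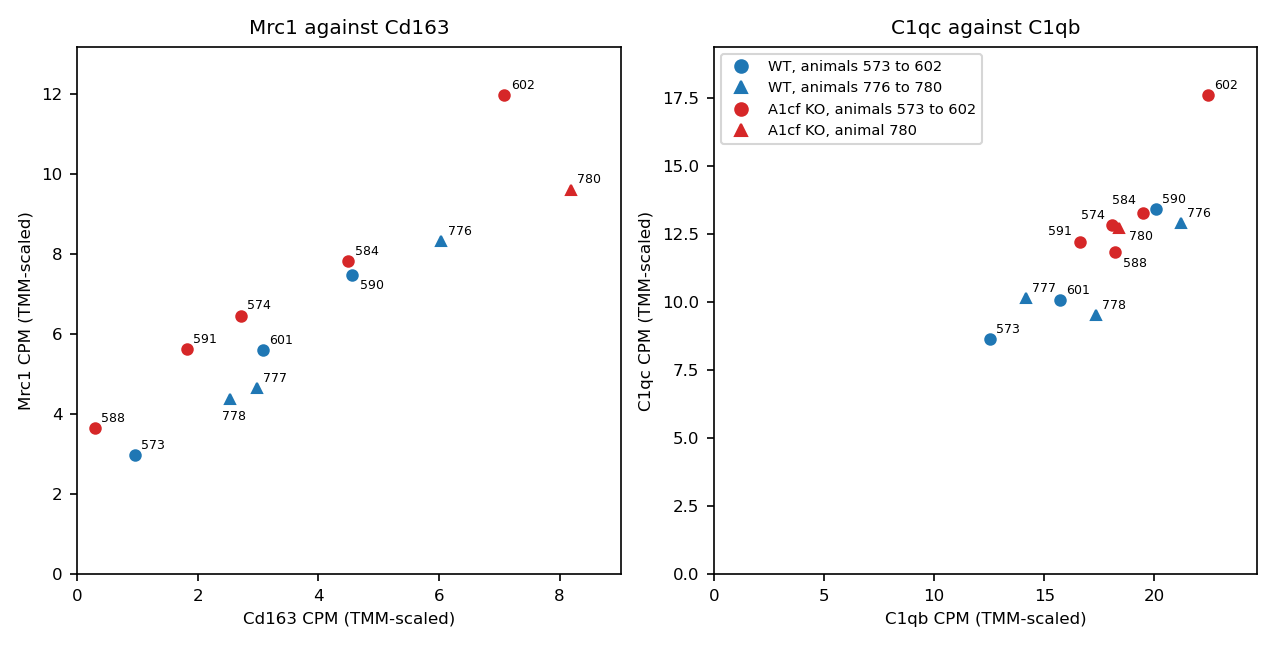
Mrc1 against Cd163 (left) and C1qc against C1qb (right), in CPM per library with both axes starting at 0, with WT in blue, A1cf KO in red, circles for animals 573 to 602, triangles for 776 to 780, and the animal number beside each point. Cd163 spans 0.292 to 8.19 CPM with both ends in A1cf KO, and A1cf KO 602 is highest for C1qb and C1qc.

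The adaptors Fcer1g and Tyrobp, which carry the signals of Fc and other activating receptors, had overlapping genotypes and no detectable relation to each other. Fcer1g ran from 3.84 to 5.30 CPM in WT (median 4.89) and from 4.65 to 6.45 CPM in A1cf KO (median 5.86). The upper 4 A1cf KO libraries stood above every WT library, and the log2 fold change was 0.25 (SE 0.12, unadjusted p = 0.052, adjusted p = 0.487 by edgeR). Tyrobp ran from 4.43 to 6.90 CPM in WT (median 5.25) and from 4.44 to 6.52 CPM in A1cf KO (median 5.99), with a log2 fold change of 0.09. Its ranges were nearly the same in both genotypes. Over the 12 libraries the pair had a Pearson r of 0.18 (permutation p = 0.569) and a Spearman rho of 0.07 (permutation p = 0.835), with adjusted values of 0.632 and 0.835. Without WT 573 and A1cf KO 584, r was -0.02, and within animals 573 to 602 it was 0.43.

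Among the secreted, lysosomal and cytosolic proteins, the 3 chains of C1q, the starter of the classical complement pathway, varied together. The other genes of this group were not correlated with them or with each other. Macrophages are the main source of C1q in tissue, and the genes C1qa, C1qc and C1qb lie next to each other on the minus strand of chromosome 4, between 136880129 and 136898803. C1qc ran from 8.63 to 13.4 CPM in WT (median 10.1) and from 11.8 to 17.6 CPM in A1cf KO (median 12.8). WT 590 and WT 776 lay within the A1cf KO range, and A1cf KO 602 was the highest of all. The log2 fold change was 0.32 (SE 0.12, unadjusted p = 0.023, adjusted p = 0.400 by edgeR). C1qa had means of 13.6 ± 2.96 and 15.6 ± 2.54 CPM and a log2 fold change of 0.20, and C1qb means of 16.8 ± 3.37 and 18.9 ± 1.97 CPM and a log2 fold change of 0.17. All 3 were lowest in WT 573 and highest in A1cf KO 602.

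For C1qb and C1qc, Pearson r was 0.87 (permutation p = 2.2e-04) and Spearman rho 0.89 (permutation p = 1.8e-04), with adjusted values of 7.3e-04 and 9.0e-04. It was 0.82 without WT 573 and WT 777, the libraries farthest from the median of C1qb in log2 CPM, and 0.95 within animals 573 to 602. For C1qa with C1qb, Pearson r was 0.88 (permutation p = 1.2e-04) and Spearman rho 0.82 (permutation p = 0.0018), with adjusted values of 6.0e-04 and 0.0044, and r was 0.70 without WT 573 and A1cf KO 602 and 0.91 within animals 573 to 602. For C1qa with C1qc, Pearson r was 0.83 (permutation p = 0.0011) and Spearman rho 0.83 (permutation p = 0.0013), with adjusted values of 0.0029 and 0.0044, and r was 0.64 without the same 2 libraries and 0.90 within animals 573 to 602.

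The 250 bases before RefSeq's start of C1qb (chr4:136886201-136886450, minus strand) are shown as those of a chain that varied with its neighbours, and those of Itgax (chr7:128129300-128129549, plus strand) as those of the one member called by DESeq2. With the same marking, C1qb held 1 match and Itgax 0.
C1qb: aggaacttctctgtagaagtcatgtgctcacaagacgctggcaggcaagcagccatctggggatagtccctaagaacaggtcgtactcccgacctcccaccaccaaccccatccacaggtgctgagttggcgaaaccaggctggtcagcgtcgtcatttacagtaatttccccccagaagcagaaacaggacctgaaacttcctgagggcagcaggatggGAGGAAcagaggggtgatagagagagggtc
Itgax: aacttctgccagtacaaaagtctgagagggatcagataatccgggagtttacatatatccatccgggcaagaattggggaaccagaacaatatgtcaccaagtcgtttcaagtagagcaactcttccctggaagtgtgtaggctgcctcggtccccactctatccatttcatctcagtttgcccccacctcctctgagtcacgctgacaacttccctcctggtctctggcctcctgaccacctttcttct
An absence of the letters says only that they are not in this window.

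Lyz2, the most abundant myeloid gene per kilobase, ran from 21.8 to 47.7 CPM in WT (median 28.7) and from 24.2 to 53.9 CPM in A1cf KO (median 34.2). Its highest libraries were WT 590 and A1cf KO 602, which were also the highest of their groups for Itgam. The log2 fold change was 0.22, and 0.07 without A1cf KO 602. Aif1, which encodes the calcium-binding macrophage protein IBA1, had the lowest fold change of its role group, 0.16, with 1.105 to 1.61 CPM in WT (median 1.51) and 0.914 to 2.38 CPM in A1cf KO (median 1.71). The WT range of Aif1 lay inside that of A1cf KO. Cd68, a lysosomal glycoprotein of phagocytes, had means of 3.28 ± 0.76 and 3.97 ± 0.78 CPM and a log2 fold change of 0.28.

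Of the genes shared by leukocytes, Ptprc and Laptm5 had an unadjusted p under 0.05. Ptprc encodes CD45, the phosphatase that marks all nucleated blood cells, and lies on chromosome 1 from 138062861 to 138175708. In WT it was 7.51, 6.73, 6.59, 8.91, 7.62 and 7.42 CPM in animals 573, 590, 601, 776, 777 and 778. In A1cf KO it was 10.4, 12.8, 10.03, 8.09, 7.14 and 10.7 CPM in animals 574, 584, 588, 591, 602 and 780. A1cf KO 591 and 602 fell within the WT range, and the other 4 stood above it. The log2 fold change was 0.40 (SE 0.13), with an unadjusted p of 0.0074 and an adjusted p of 0.317 by edgeR, and an exact two-sided permutation p of 0.024. Laptm5, a lysosomal membrane protein of blood cells, ran from 9.41 to 13.6 CPM in WT (median 11.8) and from 12.7 to 14.97 CPM in A1cf KO (median 13.3). WT 776 alone lay within the A1cf KO range, and the log2 fold change was 0.25 (SE 0.092, unadjusted p = 0.016, adjusted p = 0.375 by edgeR).

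Lcp1, which encodes the actin-bundling protein plastin of leukocytes, was the one shared gene with a negative value. It ran from 28.9 to 41.5 CPM in WT (median 32.3) and from 28.9 to 34.2 CPM in A1cf KO (median 31.4). The ranges overlapped, with WT 601 highest, and the log2 fold change was -0.07 (edgeR adjusted p = 0.813). Exons of Lcp1 share 311 bases with Gm15628 and 219 bases with Gm15629 on the other strand, so its level is uncertain. Cd52, a small surface glycoprotein and the most abundant shared gene per kilobase, averaged 4.0 ± 0.70 CPM for WT and 4.66 ± 1.18 CPM for A1cf KO. Its exons share 172 bases with Aim1l on the other strand, and those of Coro1a, an actin regulator, 26 bases with Bola2, so both levels are uncertain. Cd53, a tetraspanin, had a log2 fold change of 0.22 and Coro1a one of 0.17.

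Seen by library rather than by gene, the myeloid list was highest in A1cf KO 584 and 602 and lowest in WT 573. Mean log2 CPM over the 20 myeloid genes was 2.71 in A1cf KO 584, 2.70 in A1cf KO 602 and 1.91 in WT 573. Partly different genes made up these high values. Cx3cr1, Ccr2, Itgax, Cd68, Fcgr1, Fcer1g and Ly86 were high in A1cf KO 584. Adgre1, Itgam, Mrc1, Cd163, Lyz2 and the C1q chains were high in A1cf KO 602. Summed CPM of the list ran from 147 to 216 in the WT libraries, against 171 to 241 in those of A1cf KO. For the 6 shared genes the WT range was 59.7 to 74.1 and the A1cf KO range 67.3 to 76.9. Within animals 776 to 780, with 1 A1cf KO library and no test, the median log2 ratio of group means was 0.19 for myeloid, 0.10 for shared and -0.03 for lymphoid genes.

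**Figure D4:**
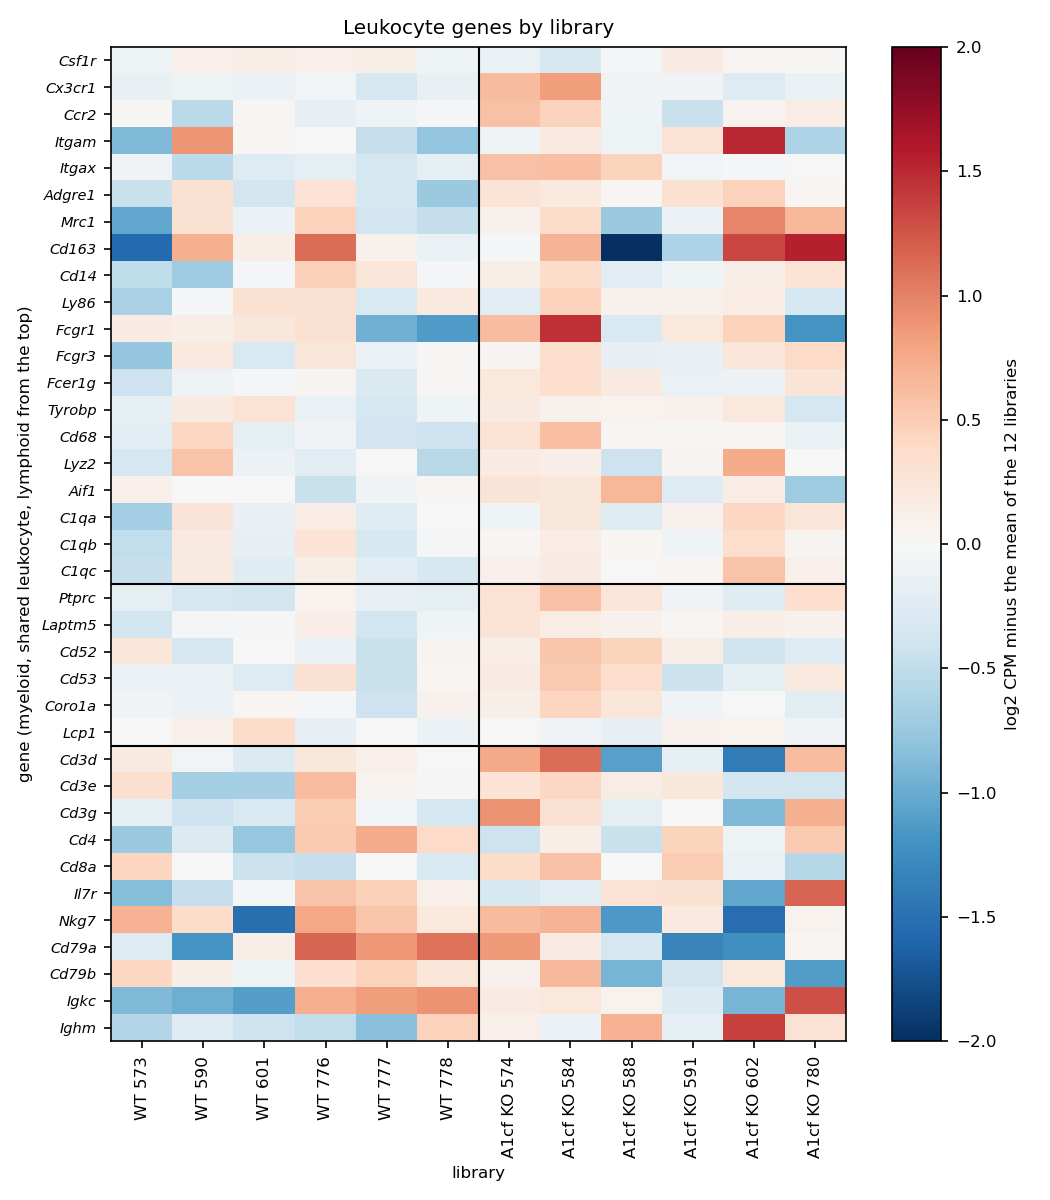
Log2 CPM minus the mean of the 12 libraries for the 37 tested members (y axis, myeloid, shared leukocyte and lymphoid blocks from the top) in each library (x axis, WT left and A1cf KO right of the line). The colour scale ends at -2 and 2, and Cd163 in A1cf KO 588 lies below its end. Igkc is high in the 4 libraries with numbers 776 to 780 in both genotypes.

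Other gene lists moved beside these values, and their part in the leukocyte values was not tested. Summed CPM of 15 immediate early genes, which respond to handling of tissue among other stimuli, was 965 in A1cf KO 584, 535 in WT 573 and 469 in A1cf KO 574, and 172 to 303 in the other 9 libraries. Of 14 such genes tested, all 14 had positive log2 fold changes with a median of 0.56. Cell division genes had 12 of 12 positive with a median of 0.58, and interferon response genes 19 of 20 with a median of 0.21. By number series, immediate early genes had a median log2 difference of -0.46, with 12 of 14 lower in 776 to 780. Cell division genes had -0.57, with 12 of 12 lower. For immediate early, cell division and interferon genes, median genotype log2 ratios were 0.66, 0.40 and 0.36 within animals 573 to 602. Within animals 776 to 780, with 1 A1cf KO library, they were -0.05, 0.37 and 0.05. Genes of the loop of Henle had 0 of 10 positive with a median of -0.41, and their summed CPM was 5111 to 7341 in WT and 3829 to 4854 in A1cf KO. None of these genes passed the edgeR threshold for genotype. At an unadjusted p under 0.05 by edgeR, all 10 loop of Henle genes were lower, beside 5.28% of all genes. DESeq2 called 4 loop of Henle genes lower, where it called 80 of all genes lower. It called 2 interferon response, 1 immediate early and 1 cell division gene higher, beside 0.603% of all genes. Mitochondrially encoded genes had 17 of 20 positive with a median of 0.21, and took 9.13% to 11.8% of counts in the WT libraries against 11.1% to 12.7% in those of A1cf KO. Red cell and platelet genes had 1 of 9 positive with a median of -0.22, and summed to 265 to 443 CPM in WT and 178 to 469 CPM in A1cf KO.

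Of the other genes listed for these cell types and pathways, 0 were called for genotype by edgeR. Of 23 tested other macrophage genes, 18 were positive with a median of 0.20, and 4 had an unadjusted p under 0.05, all higher. Ctss, the lysosomal protease cathepsin S, had means of 10.6 ± 1.31 CPM (WT) and 13.8 ± 1.09 CPM (A1cf KO), with a log2 fold change of 0.38 and adjusted p of 0.157 by edgeR and 0.0075 by DESeq2. Mpeg1, the pore-forming protein of phagocytes, had means of 12.3 ± 1.54 and 15.3 ± 1.73 CPM and an edgeR adjusted p of 0.293. Myeloid transcription and signalling genes had 14 of 19 positive with a median of 0.21. Spi1, which encodes PU.1, had means of 1.22 ± 0.23 and 1.77 ± 0.35 CPM (log2 fold change 0.53, edgeR adjusted p = 0.346), while Hcst, an adaptor of NK and T cells, had 0.500 ± 0.12 and 0.277 ± 0.11 CPM (log2 fold change -0.84, edgeR adjusted p = 0.346). Dendritic cell genes had 8 of 10 positive with a median of 0.23. Of 14 neutrophil and mast cell genes 5 had enough counts to test, and 4 of these were positive with a median of 0.60.

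Among ligands, 9 of 12 tested growth factors and chemokines had positive log2 fold changes with a median of 0.20, and 3 of them had an unadjusted p under 0.05. Ccl2, the chemokine that binds Ccr2, averaged 0.155 ± 0.094 CPM in WT, against 0.492 ± 0.22 CPM in A1cf KO. Its groups did not overlap, and the log2 fold change of 1.56 had an edgeR adjusted p of 0.236. Both levels of Ccl2 are low, as 1 count stood for 0.0187 CPM (A1cf KO 574) to 0.0368 CPM (WT 776). Cxcl10, a chemokine induced by interferon, was 1.96 ± 0.46 and 4.42 ± 3.26 CPM, with an edgeR adjusted p of 0.297.

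None of the 7 T and NK cell members had an unadjusted p under 0.05 for genotype, and their values were widely spread. Cd3g, a chain of the T cell receptor complex, had the highest log2 fold change of the 7, 0.37 (edgeR adjusted p = 0.683). It ran from 0.465 to 0.884 CPM in WT (median 0.522) and from 0.337 to 1.16 CPM in A1cf KO (median 0.697), so that the WT range lay inside the A1cf KO range. Nkg7, a granule protein of NK and cytotoxic T cells and the most abundant of the 7 per kilobase, had the lowest, -0.29 (edgeR adjusted p = 0.842). It ran from 0.228 to 1.105 CPM in WT (median 0.894) and from 0.225 to 1.04 CPM in A1cf KO (median 0.710), with WT 601, A1cf KO 588 and A1cf KO 602 far below the others. The chains Cd3d and Cd3g, which lie side by side on chromosome 9, had a Pearson r of 0.77 (permutation p = 0.0041) and a Spearman rho of 0.79 (permutation p = 0.0035) over the 12 libraries, with adjusted values of 0.0082 and 0.0070. Without A1cf KO 584 and A1cf KO 602 r was 0.70, and within animals 573 to 602 it was 0.78. For Cd3e with Cd3g, Pearson r was 0.47 and Spearman rho 0.65, with adjusted permutation p of 0.207 and 0.043, and r was 0.35 without WT 590 and WT 601. For Cd3e with Cd3d, r was 0.36 and rho 0.59, with adjusted permutation p of 0.351 and 0.071, and r was 0.11 without A1cf KO 584 and A1cf KO 602. Cd8a, the coreceptor chain of cytotoxic T cells, had a log2 fold change of 0.27 and Cd3d one of 0.20. Outside the members, 16 of 20 tested T and NK cell genes were positive with a median of 0.24. Klrb1c, the NK cell receptor NK1.1, had means of 0.380 ± 0.16 CPM (WT) and 0.132 ± 0.081 CPM (A1cf KO) (edgeR adjusted p = 0.308).

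B cell members went in different directions by genotype. Ighm, the constant region of the IgM heavy chain on chromosome 12 from 113418558 to 113422730, had the largest fold change of the 37. In WT it was 6.23, 7.82, 7.02, 6.67, 5.29 and 12.96 CPM in animals 573, 590, 601, 776, 777 and 778. In A1cf KO it was 10.1, 8.64, 15.2, 8.17, 24.2 and 11.5 CPM in animals 574, 584, 588, 591, 602 and 780. All 6 A1cf KO libraries lay above 5 of the 6 WT libraries, and WT 778 fell among the A1cf KO values. The means were 7.66 ± 2.73 and 12.98 ± 6.06 CPM, and the log2 fold change was 0.76 (SE 0.27, unadjusted p = 0.014, adjusted p = 0.366 by edgeR). It was 0.48 without A1cf KO 602. Cd79a and Cd79b, the signalling pair of the B cell receptor, had negative values of -0.58 and -0.37 (edgeR adjusted p of 0.671 and 0.668). Cd79a ran from 0.175 to 0.884 CPM in WT (median 0.574) and from 0.156 to 0.710 CPM in A1cf KO (median 0.360), and its groups overlapped. Within animals 573 to 602 its log2 fold change was 0.22. Over the 12 libraries the Cd79 pair had a Pearson r of 0.28 and a Spearman rho of 0.47, with adjusted permutation p of 0.466 and 0.161, and r was 0.31 without A1cf KO 591 and A1cf KO 602. Ighm and Igkc had an r of 0.13 within animals 573 to 602, and no r is given over all libraries because Igkc falls into separate clusters.

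Igkc was higher in the upper animal number series. It lies on chromosome 6 (70726435 to 70726966, plus strand). In WT animals 573, 590 and 601 it was 16.7, 15.7 and 14.4 CPM, and in WT 776, 777 and 778 it was 51.0, 55.2 and 57.3 CPM. In A1cf KO it was 34.5, 35.7, 32.3, 25.5 and 16.3 CPM in animals 574, 584, 588, 591 and 602, and 75.4 CPM in animal 780. Every library of 776 to 780 thus stood above every library of 573 to 602, in both genotypes. How many of all genes separate in this way by number series was not counted. In a fit with a genotype term, the log2 difference of 776 to 780 from 573 to 602 was 1.66 (SE 0.17, adjusted p = 1.9e-04 by edgeR and 3.4e-18 by DESeq2). Among the WT libraries alone it was 1.81 (edgeR adjusted p = 8.0e-05). Of the 37 tested members Igkc was the one called for number series by edgeR, where 355 of all genes were called higher in 776 to 780 (2.1%).

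The unadjusted genotype value of Igkc was a log2 fold change of 0.06 (SE 0.41, edgeR adjusted p = 0.973), with means of 35.1 ± 21.4 CPM (WT) and 36.6 ± 20.3 CPM (A1cf KO). With a term for number series it was 0.77 (SE 0.17, unadjusted p = 4.4e-04, adjusted p = 0.092 by edgeR), in a fit that called 24 of all genes for genotype (0.142%) and none of the 37 members. Within animals 573 to 602 it was 0.89 (unadjusted p = 0.0020, adjusted p = 0.394 by edgeR), with WT at 14.4 to 16.7 CPM and A1cf KO at 16.3 to 35.7 CPM. In that range 4 of the 5 A1cf KO libraries lay above the WT libraries, and A1cf KO 602 lay among them. Ighm kept its size under these settings, with 0.79 with the term for number series and 0.91 within animals 573 to 602 (edgeR adjusted p of 0.296 and 0.608).

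Genes of antibody-secreting cells outside the members were read beside Igkc. Igha, the IgA heavy chain constant region, was 5.93 to 44.9 CPM in animals 573 to 602 and 66.4 to 92.6 CPM in animals 776 to 780. Jchain, which links IgA and IgM into polymers, was 3.85 to 9.44 CPM and 11.6 to 21.0 CPM. For neither gene did the ranges overlap, a separation whose share over all genes was not counted. Their log2 differences by number series were 2.0 (edgeR adjusted p = 0.0049) and 1.63 (edgeR adjusted p = 3.2e-04), and Igha missed the threshold without A1cf KO 780 (2.14, edgeR adjusted p = 0.052). The lambda chain genes Iglc1 and Iglc2 had 1.36 and 1.70 (edgeR adjusted p of 0.099 and 0.069). Ighm had 0.09, Ighd 0.05 and Ighg2b 0.33, with edgeR adjusted p between 0.765 and 0.966. The endoplasmic reticulum chaperone gene Mzb1 of plasma cells had 0.01, and the B cell gene Cd22 had -0.02. Iglc1, Iglc2, Ighd, Mzb1 and Cd22 were chosen after their values were seen. Of 16 tested B and plasma cell genes, 2 were called higher in 776 to 780, namely Igha and Jchain, and 8 of 16 had positive genotype values with a median of 0.04. Within animals 573 to 602 their median genotype log2 ratio was 0.34, and within 776 to 780, with 1 A1cf KO library, -0.02. With a term for number series, the genotype log2 fold change went from -0.11 to 0.73 for Igha (edgeR adjusted p = 0.371). For Jchain it went from 0.12 to 0.79 (edgeR adjusted p = 0.111). By genotype, the IgG heavy chain genes Ighg2b and Ighg2c had log2 fold changes of 1.27 and 1.19 (edgeR adjusted p of 0.340 and 0.449). Immunoglobulin constant regions are similar in sequence, so how reads were split between them is uncertain. Among genes of lymph node stroma, 2 of 6 tested were called higher in 776 to 780, namely Cd34 with a log2 difference of 0.56 (edgeR adjusted p = 0.010) and Mfge8 with 0.26 (edgeR adjusted p = 0.032), while Madcam1 and Glycam1 had too few counts to test. Cd34 and Mfge8 are also expressed by other cells of the kidney. Summed CPM of the list was 76.4 to 97.0 in animals 573 to 602 and 102 to 109 in animals 776 to 780. The part of these genes in the Igkc values was not tested.

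**Figure D5:**
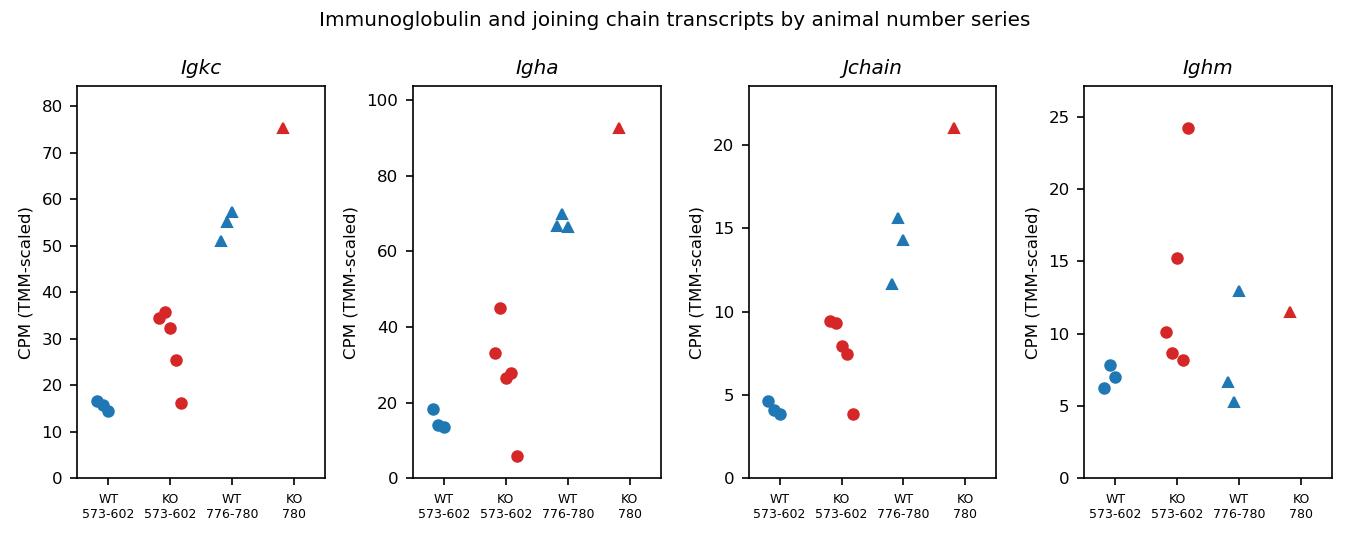
CPM (y axis, starting at 0) per library of Igkc, Igha, Jchain and Ighm, by genotype and animal number series (WT blue, A1cf KO red, circles 573 to 602, triangles 776 to 780). For Igkc, Igha and Jchain each triangle lies above each circle, with Igkc at 51.0 to 75.4 CPM against 14.4 to 35.7 CPM, and for Ighm they overlap.

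Number series went with other members less clearly. At an unadjusted p under 0.05, 4 of 11 lymphoid genes were higher in 776 to 780 and 0 lower, beside 9.18% of all genes in each direction. Besides Igkc these were Cd4, Il7r and Cd79a. Cd4, the coreceptor of helper T cells, was 0.501 to 1.15 CPM in animals 573 to 602 and 1.104 to 1.41 CPM in animals 776 to 780, with A1cf KO 591 within the upper range. Its log2 difference was 0.93 (SE 0.24, adjusted p = 0.057 by edgeR and 0.012 by DESeq2). Il7r, the receptor for the T cell survival factor IL-7, was 0.337 to 0.860 CPM and 0.751 to 1.56 CPM, with a log2 difference of 0.98 (SE 0.27, adjusted p = 0.072 by edgeR and 0.024 by DESeq2). Cd79a had 1.00 (SE 0.44, unadjusted p = 0.040, adjusted p = 0.247 by edgeR). By DESeq2, which called these 2 beside Igkc, 4.52% of all genes were higher in 776 to 780. Of the 11 lymphoid genes 9 had positive differences, beside 48.6% of all genes, and their median was 0.27, where that over all genes was -0.0062. Their summed CPM, in which Igkc is the main term, was 26.4 to 30.2 in WT animals of 573 to 602 and 66.1 to 77.4 in WT animals of 776 to 780.

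Myeloid and shared genes had number series medians near 0, at -0.03 and -0.08. Of the 20 myeloid genes, Cd14 was higher in 776 to 780 (0.48, unadjusted p = 0.015), and Fcgr1 (-1.0, unadjusted p = 0.027) and Tyrobp (-0.35, unadjusted p = 0.0091) were lower, with edgeR adjusted p between 0.125 and 0.207. Tyrobp was 4.97 to 6.90 CPM in animals 573 to 602 and 4.43 to 5.34 CPM in animals 776 to 780. Fcgr1 was 0.626 to 2.14 CPM and 0.339 to 0.958 CPM, with WT 776 alone of the upper series above the lowest of the other. Lcp1 was the shared gene with an unadjusted p under 0.05, at -0.18 (unadjusted p = 0.040, adjusted p = 0.248 by edgeR). Outside the members, Inpp5d, a phosphatase that limits signalling in leukocytes, was called higher (0.74, edgeR adjusted p = 0.0072) and Fgr, a kinase of myeloid cells, lower (-0.83, edgeR adjusted p = 0.033). The number series is not a labelled batch, and animals 776 to 780 hold 1 A1cf KO library, so its values rest mainly on WT animals.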

How the data were processed

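The authors' deposited table holds whole-number counts per gene. The counter was featureCounts 1.5.0-p2 per the file headers, run over GENCODE M8 exons by gene name with no strand, pair or duplicate option. STAR, DESeq2 and the mm10 build are named in the submitters' processing notes. Strandedness is not given in the sources used here. Between 79.7% and 83.0% of counts of 2 to 20 were even in each library, so that most fragments appear to be counted by both reads.

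The tests used edgeR 4.0.16 in R 4.3.3 (filterByExpr by genotype, TMM scaling, quasi-likelihood F test, Benjamini-Hochberg adjustment over 16910 genes, threshold 0.05). Number series was tested with a genotype term. The SE of an edgeR log2 value was derived as its absolute size divided by the square root of F. Correlations used log2 CPM with a prior count of 2 and 100000 permutations. DESeq2 1.42.0, DESeq2 size factors, other low-count filters, a number series term, animals 573 to 602 only, WT libraries only and leaving out each library were alternatives. Halved counts were added after seeing the data. Only the edgeR genotype fit was tested on simulated data, with changes larger than that of any member.

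Members and lists were chosen with earlier results of these data known. All 38 members are accounted for. Full values are given for members with an unadjusted p under 0.05 and for the extremes and most abundant gene of each role group. Of each other list, genes past the threshold or at most 2 with the smallest p are named. Values of some further members and genes were chosen after they were seen. Some genes that this rule takes are not reported here.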

Additional observations from a re-analysis of the deposited data

Results flagged for a closer look

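In 11 of 82 groups of 6 libraries examined, 1 library lay far from the other 5, where chance alone gives about 1 in 20. Among WT libraries, Itgam was 3.37 CPM and Cd68 4.73 CPM in WT 590, against 0.989 to 1.87 and 2.65 to 3.39 CPM in the others. Cx3cr1 was 1.95 CPM in WT 777 against 2.21 to 2.36 CPM, and Aif1 was 1.105 CPM in WT 776 against 1.43 to 1.61 CPM. Cd3g was 0.884 CPM in WT 776 against 0.465 to 0.597 CPM, Ms4a1 was 0.388 CPM in WT 573 against 0.0737 to 0.132 CPM, and Ighm was 12.96 CPM in WT 778 against 5.29 to 7.82 CPM. Among A1cf KO libraries, Itgam was 5.17 CPM and C1qc 17.6 CPM in A1cf KO 602, against 1.18 to 2.23 and 11.8 to 13.3 CPM in the others. In A1cf KO 780, Tyrobp was 4.44 CPM against 5.96 to 6.52 CPM, and Igkc was 75.4 CPM against 16.3 to 35.7 CPM. A1cf KO 780 is the only A1cf KO library of animals 776 to 780.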

How the results depend on the processing

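Of 37 tested members, 27 kept the sign of their genotype fold change under all alternatives run, and 1, Itgax, was called under any of them. DESeq2 called 170 genes for genotype (90 higher, 80 lower) in place of 8, and 1 myeloid member, Itgax (log2 fold change 0.55, adjusted p = 0.048). A number series term gave 24 genes (11 higher, 13 lower). Without 1 library the count was 6 to 12. With the number series term, Tyrobp turned to -0.028 and Cd4, at -0.02, to 0.37. Within animals 573 to 602, Cd4 was 0.53 and Cd79a 0.22. Without 1 library, log2 fold changes crossed 0 for Ly86 (-0.047 to 0.13), Igkc (-0.28 to 0.26), Cd3e (-0.019 to 0.22), Lcp1 (-0.10 to 0.0061), Cd4 (-0.15 to 0.16), Cd3d (-0.051 to 0.38), Cd163 (-0.036 to 0.53) and Il7r (-0.14 to 0.29). The medians ran from 0.18 (without A1cf KO 602) to 0.34 for myeloid, 0.13 to 0.26 for shared and -0.12 (without A1cf KO 780) to 0.22 (without WT 777) for lymphoid genes. For these changes the cause was not tested.

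For number series, 490 genes were called by edgeR, 1093 by DESeq2 and 120 in WT libraries only. Without 1 library the count was 140 to 696, with 140 without A1cf KO 780, 261 without WT 776, 262 without WT 590 and 308 without WT 777. DESeq2 called 3 lymphoid members (Igkc, Cd4 and Il7r). Without 1 library, 1 to 2 lymphoid members were called (Cd4 joined without A1cf KO 591, edgeR adjusted p = 0.042) and 0 to 1 myeloid members (Tyrobp without WT 573, edgeR adjusted p = 0.048). Igkc was called in all 12 such fits (log2 difference 1.603 to 1.81, edgeR adjusted p from 1.1e-05 to 0.0030). No paired analysis was made, because the labels used here name no litter and pair no WT library with an A1cf KO library. Depth limits the T cell genes and Cd79a most, with Ms4a1 at 0 to 20 counts.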
